A study of Mus musculus with 6 samples.

Results

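The genes described here encode 10 proteins with which Sertoli cells and germ cells hold on to each other in the mouse testis: the cadherins Cdh1, Cdh2 and Cdh3, the nectins Nectin2 and Nectin3, the related adhesion protein Cadm1, the catenins Ctnna1 and Ctnnb1, and the actin linkers Afdn and Espn. They were taken by gene symbol from a table of 45777 genes, in which each of the 10 symbols was found. The table came from total RNA sequencing of whole testis of wild-type (WT) mice, 3 libraries from animals given ethanol in a liquid diet for 16 weeks and 3 from animals given the control liquid diet for the same time. The diet, named LDC, was given at 10 ml per animal and day, after 5 days in which all animals took its control form. Strain and age of the mice were not given in the sources used here. The labels do not state whether each library is from a different animal. The p-values therefore reflect only how far these samples spread, which may be technical. Because whole testis was sequenced, fewer cells of a type and less RNA per cell cannot be told apart.

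Sertoli cells are the tall somatic cells of the seminiferous tubule, and germ cells mature while clasped between them. Classical cadherins bind their own kind on the neighbouring cell and pass the pull to actin through beta-catenin and alpha-catenin. At the junction between a Sertoli cell and an elongating spermatid, called the apical ectoplasmic specialization, nectin-2 on the Sertoli cell binds nectin-3 on the spermatid, afadin (Afdn) anchors the nectin tail, and espin (Espn) bundles the actin beneath the Sertoli cell membrane. Cadm1 is carried by germ cells, and mice without Cadm1, Nectin2 or Nectin3 are known for defects of spermatids and male fertility.

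Nectins end in a short stretch that fits into the PDZ domain of afadin, and splicing gives some transcripts another end. The gene table sums all transcripts of a gene, so these ends are shown to make clear what its Nectin2, Nectin3 and Cadm1 values contain. Each sequence is the last 30 bases of a coding sequence on the gene's own strand, from GENCODE M21 transcripts with a RefSeq match, with the last 4 codons before the stop in capitals. The 5 Cadm1 transcripts had 1 common end, with the stop codon at chr9:47850388-47850390 on the plus strand of mm10. The stop codons of the 2 Nectin2 transcripts lie at chr7:19717515-19717517 and chr7:19724481-19724483 on the minus strand. Those of the 3 Nectin3 transcripts lie at chr16:46448388-46448390, chr16:46395096-46395098 and chr16:46436330-46436332 on the minus strand.
Cadm1: tccgaagaaaagaaaGAGTACTTCATCtag
Nectin2, transcript of 2735 bases: ttttttgtgtcacggGCCATGTATGTGtga
Nectin2, transcript of 1955 bases: ctcatctctcggcggGCAGTTTACGTGtga
Nectin3, transcript of 3062 bases: gtaatttccaggaggGAGTGGTATGTCtaa
Nectin3, transcript of 9116 bases: tacatcaacccacgaGAACATTATGTGtga
Nectin3, transcript of 1746 bases: ggccaggtacgtgctCTCGAAGACACTtaa
Cadm1 thus had 1 end over 5 transcripts, while each transcript of Nectin2 and of Nectin3 had an end of its own in bases. The last 2 codons before the stop encode tyrosine and valine in both Nectin2 transcripts and the Nectin3 transcripts of 3062 and 9116 bases. In the Nectin3 transcript of 1746 bases they encode aspartate and threonine. Read totals per gene do not say which of these ends was present.

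Promoters of the nectin pair are shown because the 2 genes stood at unequal levels in whole testis, where cell numbers and RNA per cell cannot be told apart. Each runs from 250 bases before to 50 bases after a RefSeq start site on GRCm38.p6, 5′ to 3′ on the gene's own strand. Capitals mark the GC box GGGCGG and the cyclic AMP response element TGACGTCA, both searched on both strands, where no 2 matches overlapped. The Nectin2 promoter lies at chr7:19749524-19749823 on the minus strand, and the Nectin3 promoter at chr16:46496918-46497217 on the minus strand, at a start site inside the annotated span of the gene.
Nectin2 promoter: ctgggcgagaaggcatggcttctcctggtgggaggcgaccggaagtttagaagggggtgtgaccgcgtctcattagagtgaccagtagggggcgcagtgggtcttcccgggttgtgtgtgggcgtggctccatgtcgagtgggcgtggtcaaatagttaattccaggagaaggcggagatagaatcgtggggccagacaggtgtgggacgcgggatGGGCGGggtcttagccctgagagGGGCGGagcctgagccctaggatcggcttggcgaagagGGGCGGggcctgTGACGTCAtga
Nectin3 promoter: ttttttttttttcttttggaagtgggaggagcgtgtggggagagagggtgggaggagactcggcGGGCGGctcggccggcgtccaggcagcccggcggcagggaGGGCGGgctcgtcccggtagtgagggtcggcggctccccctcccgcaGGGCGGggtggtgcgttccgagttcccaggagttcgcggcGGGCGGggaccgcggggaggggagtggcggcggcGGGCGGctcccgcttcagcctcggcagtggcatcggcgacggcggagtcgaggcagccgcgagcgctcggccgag
The Nectin2 window held 3 GC boxes and 1 cyclic AMP response element, and the Nectin3 window 5 GC boxes and 0 cyclic AMP response elements. Of the 32851 promoters of this length in the RefSeq table, 35.7% held a GC box and 1.79% the response element. Their GC content was 62.7% for Nectin2 and 73.7% for Nectin3, against a median of 52.7% over the table. These matches describe the letters of the windows and were not tested as binding sites.

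Levels of the 10 genes spanned a wide range, with the nectin of spermatids at the top and E-cadherin at the bottom. In TPM, the transcript level scaled to transcript length and library size, Nectin3 stood at 244.2 ± 22.4 over the 6 libraries (mean ± SD, n = 6) and took 48.0% of the summed TPM of the 10 genes in controls and 46.2% with ethanol. Ctnnb1, which encodes beta-catenin, followed at 87.1 ± 5.40 TPM. Cadm1 at 48.7 ± 2.27 and Nectin2 at 45.1 ± 3.70 TPM overlapped in range, though Cadm1 was the higher of the pair in 6 of 6 libraries.

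The middle of the order held genes whose levels were close. Cdh2 (N-cadherin) was at 30.2 ± 1.42 TPM, Afdn at 26.3 ± 2.90 and Ctnna1 (alpha-catenin) at 22.7 ± 2.37, where the range of Afdn overlapped those of Cdh2 and Ctnna1. Espn was at 12.0 ± 2.76 TPM, below every library of Ctnna1. Cdh3 (P-cadherin) was at 1.499 ± 0.399 TPM and Cdh1 (E-cadherin) at 0.236 ± 0.141 TPM, so that N-cadherin made up most of the transcript level of the 3 cadherins.

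**Figure D1:**
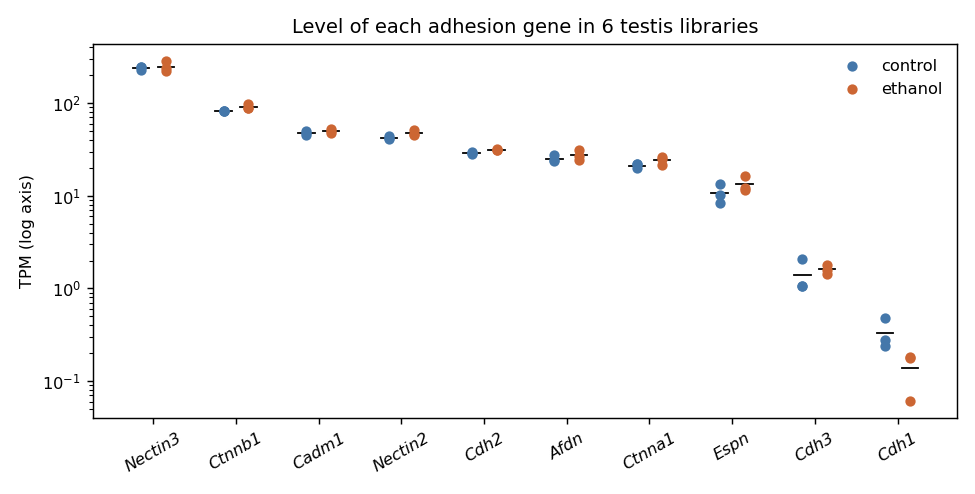
TPM of the 10 adhesion genes on a log axis, ordered by mean, with 3 control and 3 ethanol libraries as points and the mean of each diet as a line. Nectin3 lies between 219.9 and 284.8 TPM and Cdh1 between 0.0612 and 0.481 TPM, and the diets lie close together for most genes.

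Of the 10 genes, 0 passed the test between the diets. Diets were compared on read counts by the quasi-likelihood test of edgeR, adjusted by Benjamini-Hochberg over the 25073 genes that passed the filter on low counts, among them all 10 adhesion genes, at an adjusted p under 0.05. Over all genes it called 0 (0%), while 7.45% were higher and 5.89% lower with ethanol at an unadjusted p under 0.05. Of the 10 genes, 1 was lower (Cdh1) and 0 were higher at that level. At an adjusted p under 0.05, DESeq2 called 0 of the 8 to which it gave an adjusted p, which leaves out Cdh1 and Cdh3, against 2.70% of all genes (355 of 13141). Limma-voom called 0 of the 10 against 0.0199% of all genes (5 of 25073). Log2 fold changes of ethanol against control were above 0 for 8 of the 10, with a median of 0.076 against 0.0065 over all tested genes, and below 0 for Cdh1 and Nectin3.

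In CPM, reads of a gene relative to its TMM-scaled library, all 3 ethanol libraries lay below all 3 controls for 1 of the 10 genes and above them for 0. Over all tested genes these shares were 9.01% and 9.76%. In TPM the 3 ethanol libraries lay above the controls for 3 of the 10 (Cdh2, Nectin2 and Ctnnb1) and below them for 1 (Cdh1), where the shares over all tested genes were 11.7% and 4.41%.

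**Figure D2:**
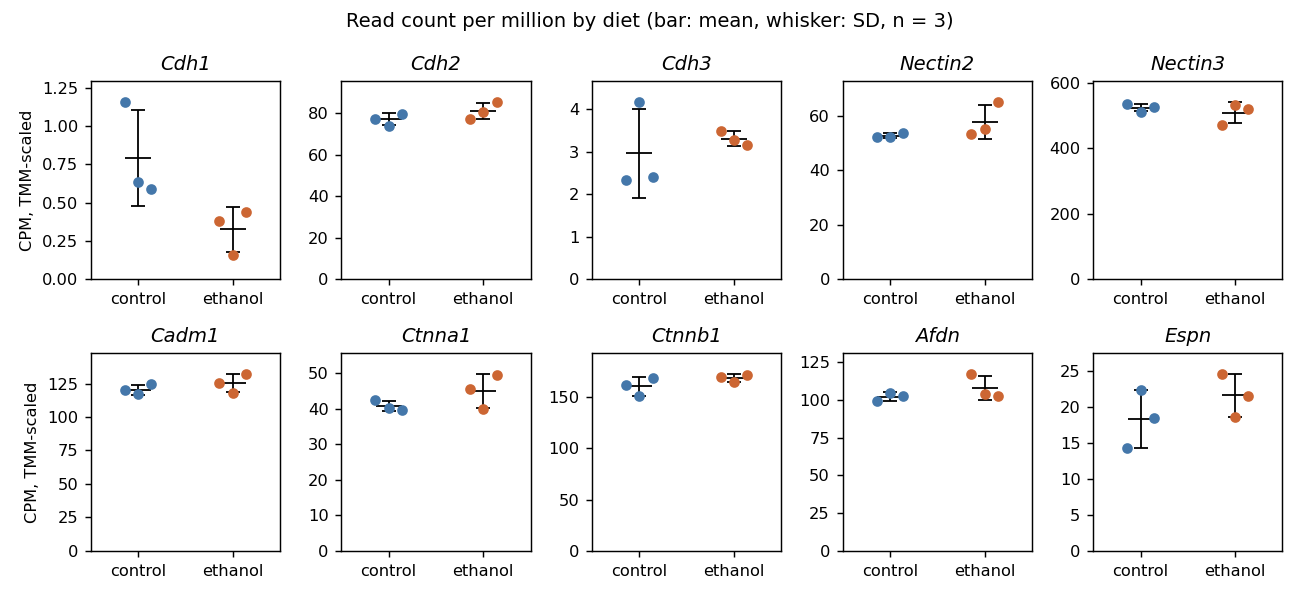
CPM of each gene by diet on linear axes from 0, with 3 libraries per diet as points, the mean as a bar and the SD as whiskers. The points of the diets are apart for Cdh1 alone, and the control spread of Cdh3 and Espn is wide.

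E-cadherin, which joins epithelial cells and in the testis marks undifferentiated spermatogonia, had the largest difference of the 10 and the lowest counts. Cdh1 (Gene ID 12550; chr8:106603350-106670247, plus strand) was at 1.15, 0.631 and 0.588 CPM in control libraries 1, 2 and 3 and at 0.378, 0.160 and 0.439 CPM in ethanol libraries 1, 2 and 3. The diets did not overlap, control library 1 stood above all others, and ethanol library 2 was the lowest. The means were 0.791 ± 0.315 and 0.326 ± 0.146 CPM (SD, n = 3), a log2 fold change of -1.29 (SE 0.41), and the edgeR adjusted p was 0.226.

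Few reads lay behind these values. Cdh1 had 54, 28 and 25 reads in the control libraries and 15, 7 and 18 in the ethanol libraries. With exact 95% Poisson intervals, which cover counting error only, control library 1 spanned 40.6 to 70.5 reads and ethanol library 2 spanned 2.81 to 14.4, while control library 3 (16.2 to 36.9) and ethanol library 3 (10.7 to 28.4) overlapped. Without control library 1 the log2 fold change was -0.92 (edgeR adjusted p = 0.58). Against Cdh2, the log2 ratio of Cdh1 to Cdh2 in TPM was -6.52 ± 0.534 in controls and -7.97 ± 0.899 with ethanol (exact two-sided permutation test, n = 3, p = 0.1, the smallest that 3 against 3 allows, and 0.2 after adjustment over the 2 ratios tested). The difference was -1.46, and -0.94 without ethanol library 2.

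Markers of the cells that can carry E-cadherin were read beside it. The summed TPM of 11 genes of undifferentiated spermatogonia was 29.0 to 35.7 in controls and 27.4 to 34.1 with ethanol. Its largest parts were Id4 and Etv5, at means of 13.6 and 9.34 TPM over the 6 libraries, which moved in opposite directions. Of the 10 tested genes of this list, 7 had log2 fold changes above 0, among them Etv5 with 0.21, and 3 below. At an unadjusted p under 0.05, 2 were lower, against 5.89% of all tested genes: Id4 with a log2 fold change of -0.41 and Eomes with -1.13. For 16 genes of the duct epithelium of rete testis and epididymis the sums were 48.4 to 54.9 and 49.9 to 57.3 TPM, with the epididymal gene Lcn5 at 0 in all 6 libraries and 5 of 16 passing the filter on low counts. Epcam, an adhesion protein of epithelia and spermatogonia, stood at 38.3 and 38.0 CPM. The duct regulator Pax8, singled out after its values were seen, had 22, 3 and 0 reads in controls and 0, 0 and 7 with ethanol, highest in control library 1 as Cdh1 was. Pax2 was also highest in control library 1, with 25 reads, against 21 in control library 3 and 20 in ethanol library 2. Others of this list were highest elsewhere, such as Krt8 in control library 2 and Epcam in ethanol library 3. The sum of the list was highest in ethanol library 3 too, where Epcam held 39.89 of its 57.33 TPM. The part of these markers in the Cdh1 result was not tested.

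**Figure D3:**
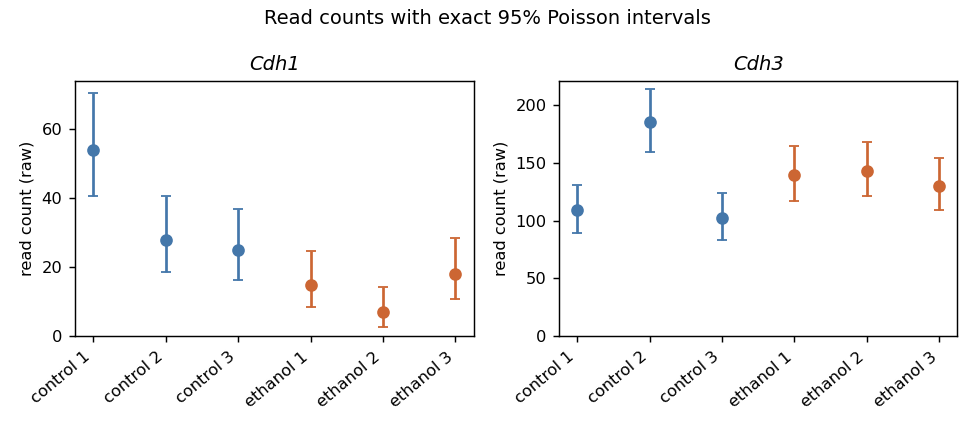
Raw read counts of Cdh1 and Cdh3 in each library with exact 95% Poisson intervals as whiskers. Cdh1 ranges from 54 reads in control library 1 to 7 in ethanol library 2 with overlapping whiskers between several libraries of the 2 diets, and Cdh3 is highest in control library 2 with 185 reads.

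P-cadherin lies next to E-cadherin, with 46438 bases and 0 protein-coding genes between them, and did not share its values. Cdh3 (Gene ID 12560; chr8:106510852-106556911, plus strand) was at 2.33, 4.17 and 2.40 CPM in controls and 3.50, 3.27 and 3.17 CPM with ethanol. Control library 2 was the highest and the other controls the lowest, so that the ethanol libraries lay inside the control range. Their log2 fold change was 0.16 (SE 0.22, edgeR adjusted p = 0.799). It was 0.485 without control library 2, and 0.003 and 0.024 without control library 1 or 3.

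N-cadherin, the main classical cadherin between Sertoli cells and germ cells, differed little. Cdh2 (Gene ID 12558, on chromosome 18) was at 77.5, 74.1 and 79.8 CPM in controls and 77.4, 80.7 and 85.4 CPM with ethanol. The diets overlapped in CPM through ethanol library 1. Between the diets the log2 fold change was 0.074 (SE 0.065, edgeR adjusted p = 0.67), with 0.045 without control library 2 and 0.029 without ethanol library 3. In TPM the ethanol libraries, at 31.3 to 31.6, lay above the controls, at 28.4 to 29.6.

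Nectin-2, the Sertoli cell side of the nectin pair, was close to even in CPM in 5 of 6 libraries. Nectin2 (Gene ID 19294; chr7:19716644-19749573, minus strand) was at 52.3, 52.1 and 53.7 CPM in controls and 53.3, 55.2 and 65.0 CPM with ethanol. Ethanol library 3 stood above the rest, and ethanol library 1 lay within the control range. The log2 fold change was 0.13 (SE 0.08, edgeR adjusted p = 0.503) and was 0.035 without ethanol library 3. All ethanol libraries lay above the controls in TPM, at 45.37 to 51.22 against 41.25 to 44.49.

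Nectin-3, the spermatid side, had the highest TPM of the 10 in each library. Nectin3 (Gene ID 58998; chr16:46387665-46498535, minus strand) was at 535.8, 512.2 and 525.7 CPM in controls and 471.7, 532.5 and 521.2 CPM with ethanol. Ethanol library 1 was the lowest, and the other ethanol libraries lay within the control range. The log2 fold change was -0.045 (SE 0.061, edgeR adjusted p = 0.8), but its sign depended on the scale and on that library: it was 0.030 on log2(TPM + 1) and 0.006 without ethanol library 1, against -0.080 and -0.070 without ethanol library 2 or 3.

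How the ratio of the 2 nectin genes in whole testis compared between the diets depended on the unit. TPM of Nectin3 was 5.68 times that of Nectin2 in controls (range 5.54 to 5.93) and 5.21 times with ethanol (range 4.64 to 6.28). Ethanol libraries 1 and 3 were below the controls and ethanol library 2 above them. The log2 ratio in TPM differed by -0.14 (exact two-sided permutation test, n = 3, p = 0.4, and 0.4 after adjustment over the 2 ratios tested). It differed by -0.28 without ethanol library 2 and by -0.075 and -0.064 without ethanol library 1 or 3. In read counts, which involve no length, the ratio was 10.2, 9.83 and 9.79 in controls and 8.84, 9.65 and 8.02 with ethanol. On that scale the diets did not overlap and the log2 ratio differed by -0.175 (exact two-sided permutation test, n = 3, p = 0.1, the smallest that 3 against 3 allows, not adjusted).

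TPM and CPM of Nectin3 ranked the libraries differently. The length implied by the authors' counts and FPKM (fragment counts corrected for length and depth) was not constant. The transcript length implied by count, total count and FPKM was 4790, 4572 and 4287 bases for Nectin3 in controls and 4898, 4083 and 4510 with ethanol. Ethanol library 2 had the shortest length and the highest TPM (284.8), and ethanol library 1 the longest length and the lowest TPM (219.9). This pairing follows in part from the arithmetic, because the implied length is the count divided by FPKM and total count. The coefficient of variation of this length over the 6 libraries was 6.74%, above that of 95.2% of the 9855 tested genes with a mean of at least 500 reads and no library at 0 FPKM, whose median was 0.532%. It overlapped between the diets. The 3 Nectin3 transcripts printed above differ in length. The sources used here do not give the tool that computed FPKM, so the quotient need not be the length of any transcript. These values do not say which transcript was present.

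**Figure D4:**
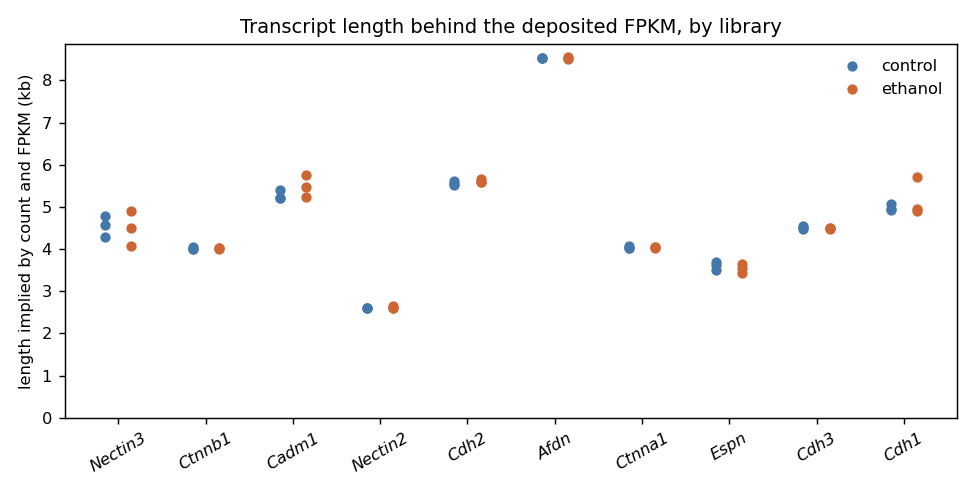
Transcript length in kilobases implied by the deposited count and FPKM of each gene, with 3 control and 3 ethanol libraries as points on an axis from 0. Nectin3 spreads from 4083 to 4898 bases and Cadm1 from 5207 to 5747, while Afdn stays within 8499 to 8564.

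Cadm1, the immunoglobulin-type adhesion protein by which germ cells bind Sertoli cells, showed little difference. Cadm1 (Gene ID 54725; chr9:47530170-47862280, plus strand) was at 119.8, 116.9 and 124.4 CPM in controls and 125.5, 118.2 and 132.0 CPM with ethanol. The diets overlapped, with ethanol library 3 highest. Its log2 fold change was 0.057 (SE 0.063, edgeR adjusted p = 0.746). It was 0.097 without ethanol library 2, and 0.036 and 0.011 without control library 2 or ethanol library 3. Its implied length varied by 3.95%, from 5207 bases in control library 2 to 5747 in ethanol library 1.

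The catenins carry the pull of cadherins to actin, and beta-catenin also acts in Wnt signalling. Ctnnb1 (Gene ID 12387; chr9:120933400-120960507, plus strand) was at 161.4, 150.4 and 168.3 CPM in controls and 169.6, 164.1 and 171.4 CPM with ethanol. The diets overlapped through control library 3 and ethanol library 2. In TPM all 3 controls stood between 83.0 and 83.2 and the ethanol libraries between 87.5 and 96.8. The log2 fold change on counts was 0.073 (SE 0.062, edgeR adjusted p = 0.658) and was 0.030 without control library 2. Exons of Ulk4 on the opposite strand cover 14.6% of the Ctnnb1 exon bases, and whether reads were counted by strand is not given in the sources used here. Reads of the 2 genes may therefore not be separated, and their mean counts were 15760 for Ulk4 and 7054 for Ctnnb1.

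Ctnna1, whose protein links beta-catenin to actin filaments, had values of similar spread. Ctnna1 (Gene ID 12385, on chromosome 18) was at 42.6, 40.2 and 39.7 CPM in controls and 45.6, 40.04 and 49.5 CPM with ethanol. Ethanol libraries 1 and 3 were above every control and ethanol library 2 was within their range. Its log2 fold change was 0.14 (SE 0.084, edgeR adjusted p = 0.495), with 0.22 and 0.062 without ethanol library 2 or 3.

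The actin linkers Afdn and Espn were both highest in ethanol library 1. Afdn (Gene ID 17356; chr17:13760391-13905798, plus strand) was at 99.1, 104.9 and 103.0 CPM in controls and 117.3, 104.0 and 102.5 CPM with ethanol, and only ethanol library 1 lay above the controls. Espn (Gene ID 56226; chr4:152120331-152152414, minus strand) was at 14.4, 22.5 and 18.5 CPM in controls and 24.7, 18.7 and 21.6 CPM with ethanol. Here too ethanol library 1 was the only one above the controls, among which the spread was wide. The log2 fold changes were 0.077 (SE 0.068, edgeR adjusted p = 0.674) for Afdn and 0.23 (SE 0.15, edgeR adjusted p = 0.536) for Espn. Afdn was at 0.013 without ethanol library 1 and 0.047 without control library 1. Espn was at 0.13 without ethanol library 1, and 0.074 and 0.40 without control library 1 or 2. Exons of Tcte2 on the opposite strand cover 2.16% of the Afdn exon bases, with mean counts of 3297 for Tcte2 and 4513 for Afdn. Opposite-strand exons also cover 3.86% of the Nectin2 exon bases (Gm20512) and 1.48% of those of Ctnna1 (Lrrtm2).

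The library in which Afdn and Espn were highest and Nectin3 lowest also stood apart in a sum of fat cell genes, mainly through Fabp4 and Cfd. The summed TPM of 6 adipocyte genes was 84.8, 31.9 and 25.7 in ethanol libraries 1, 2 and 3 and 17.0 to 28.0 in controls. In ethanol library 1, Fabp4 gave 30.33 and Cfd 27.65 TPM of this sum. Adipoq was highest in that library in TPM, at 22.06, but not in CPM, at 13.17 against 13.62 in control library 3. Of the 6 genes, 6 had log2 fold changes above 0 and 4 were higher at an unadjusted p under 0.05, against 7.45% of all tested genes, and 0 had their diets apart in CPM. The part of fat cells in the values of Afdn, Espn and Nectin3 was not tested.

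Sertoli cell and germ cell genes were read in the same libraries. The summed TPM of 14 Sertoli cell genes was 1258 to 1430 in controls and 1608 to 1749 with ethanol, and 13 of 14 had log2 fold changes above 0, 8 of them at an unadjusted p under 0.05, against 12903 of 25073 tested genes above 0 and 7.45% higher at that level. Sums were 1167 to 1279 and 1128 to 1267 TPM for 8 spermatocyte genes and 1637 to 1740 and 1578 to 1693 TPM for 8 round spermatid genes, with 8 of 8 log2 fold changes below 0 in both. Of these, 3 spermatocyte and 2 round spermatid genes were lower at an unadjusted p under 0.05, against 5.89% of all tested genes. For 8 genes of elongating spermatids, the partners in the ectoplasmic specialization, sums overlapped at 45500 to 48610 and 46760 to 52330 TPM. The same held for 5 Leydig cell genes, at 911.4 to 1032 and 936.9 to 995.3 TPM, and 5 endothelial genes, at 7.35 to 8.27 and 6.79 to 9.51 TPM. Both the Leydig and the endothelial list had 2 log2 fold changes above 0 and 3 below. At an unadjusted p under 0.05, 1 of 5 was lower in each, against 5.89% of all tested genes, and 0 were higher. All defining genes of the Sertoli cell and elongating spermatid lists were detected in each library. The part of these cell types in the differences of the adhesion genes was not tested.

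Around the 10 genes, 107 further genes of the same junctions were read in 9 lists, of which 99 were tested and 0 passed at an edgeR adjusted p under 0.05. DESeq2 called Ctnnal1 and Adam10, 2 of the 66 to which it gave an adjusted p, against 2.70% of all genes; both were higher. Log2 fold changes were above 0 for 60 and below 0 for 39, with a median of 0.036. At an unadjusted p under 0.05 by edgeR 15 were higher and 3 lower, where 7.45% and 5.89% of all tested genes were. In CPM the ethanol libraries lay above all controls for 19 and below them for 3, against 9.76% and 9.01% of all tested genes.

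Catenins and junction adaptors other than the 10 had 10 of 19 genes above 0 and a median of 0.034. Ctnnal1, an alpha-catenin-like protein, was at 24.8 ± 1.85 CPM in controls and 30.6 ± 0.865 CPM in the ethanol libraries (log2 fold change 0.30, SE 0.079, edgeR adjusted p = 0.169). Vezt, which encodes the cadherin-bound membrane protein vezatin, was at 35.5 ± 0.744 and 41.4 ± 0.511 CPM. Ctnna3, the alpha-T-catenin, was at 96.7 ± 2.71 and 111.9 ± 5.67 CPM. All 3 had their ethanol libraries above the controls in CPM, and they were the only such genes of the 19, against 9.76% of all tested genes. They were named for the smallest p of the list, which favours such separation. None passed over all genes, with edgeR adjusted p-values of 0.169 to 0.20.

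Actin regulators of the ectoplasmic specialization had 15 of 21 genes above 0 and a median of 0.070. Wasl, the N-WASP protein that starts branched actin growth, was at 15.2 ± 2.12 and 19.9 ± 1.75 CPM (log2 fold change 0.39, SE 0.11). Cortactin, Cttn, which binds branched actin, was at 49.97 ± 2.06 and 58.1 ± 2.66 CPM, and the actin bundler Pls3 at 12.3 ± 0.59 and 15.1 ± 0.746 CPM. Their edgeR adjusted p-values were 0.187, 0.215 and 0.209.

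Junction kinases and small GTPases had 11 of 14 genes above 0 and a median of 0.054. The Src-family kinase Fyn was at 32.0 ± 2.39 and 38.8 ± 1.80 CPM, and the tyrosine kinase Fer, which binds the cadherin complex, at 95.1 ± 1.02 and 105.6 ± 0.849 CPM. Src had a log2 fold change of 0.29 (SE 0.13). By edgeR the adjusted p-values were 0.187, 0.282 and 0.39.

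The proteases that cut cadherins and nectins held the smallest p of the 9 lists. Adam10, the main sheddase of cadherins, was at 25.9 ± 0.465 CPM in controls and 31.7 ± 0.254 CPM in the ethanol libraries (log2 fold change 0.29, SE 0.069, edgeR adjusted p = 0.153). The related sheddase Adam17 differed by 0.16 on the log2 scale (SE 0.072, edgeR adjusted p = 0.367). Of this list 3 of 5 genes were above 0, with a median of 0.16.

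Other cadherins had 5 of 15 tested genes above 0, against 12903 of 25073 over all tested genes, and a median of -0.098. At an unadjusted p under 0.05 by edgeR 1 was higher and 0 were lower, where 7.45% and 5.89% of all tested genes were. Cdh5, the cadherin of endothelium, was at 4.22 ± 0.652 and 5.74 ± 0.554 CPM (log2 fold change 0.44, SE 0.15), while Cdh4 and Cdh19, both under 1 CPM, had log2 fold changes of -0.56 (SE 0.32) and -0.88 (SE 0.53). In the nectin family 2 of 5 tested genes were above 0, with a median of -0.026. The poliovirus receptor gene Pvr was at 4.26 ± 0.511 and 5.45 ± 0.343 CPM, and Cadm2 at 9.54 ± 0.175 and 8.09 ± 0.206 CPM, where the ethanol libraries lay below all controls. Cadm4 had a log2 fold change of -0.22 (SE 0.24). None of these 6 passed, with edgeR adjusted p-values of 0.238 to 0.744.

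The remaining lists were small. Desmosome genes had 3 of 6 above 0 and a median of 0.17, led by the plakophilin Pkp2 at 3.45 ± 0.64 and 4.64 ± 0.0583 CPM, with log2 fold changes of 0.43 (SE 0.33) for Pkp3 and 0.55 (SE 0.69) for Dsg2. Transcription regulators of Cdh1 had 6 of 7 above 0 and a median of 0.11. The E-cadherin repressors Zeb2, Zeb1 and Snai1 had log2 fold changes of 0.28 (SE 0.11), 0.12 (SE 0.085) and 0.22 (SE 0.33). Targets of beta-catenin had 5 of 7 above 0 and a median of 0.058, with 0 at an unadjusted p under 0.05. Axin2, the feedback inhibitor of Wnt signalling, had a log2 fold change of 0.49 (SE 0.23), Lef1 -0.17 (SE 0.12) and Lgr5 0.74 (SE 0.68). Their edgeR adjusted p-values lay between 0.261 for Pkp2 and 0.822 for Snai1. Pkp3, Dsg2, Snai1 and Lgr5 stayed under 1 CPM in every library, and Pkp3 had 13 to 22 reads. Reads of Dsg2 were 11, 14 and 0 on the control diet, against 13, 9 and 12 on ethanol. For Lgr5 they were 14, 8 and 0, against 11, 10 and 13. Both were at 0 in control library 3 only, so their values above 0 rest on few reads.

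**Figure D5:**
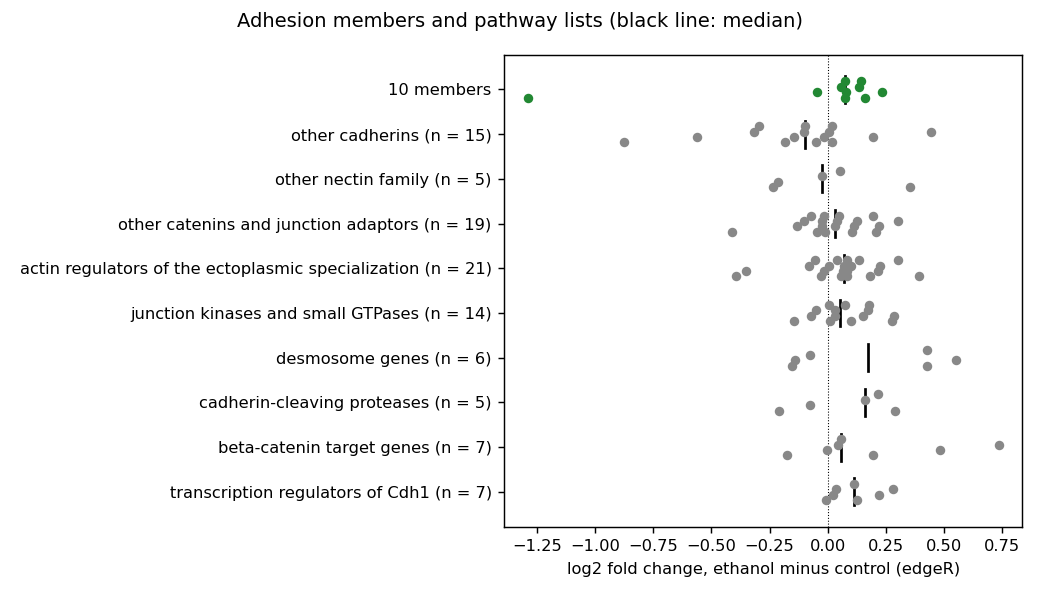
Log2 fold changes of ethanol against control for the 10 adhesion genes and the tested genes of the 9 lists, each point a gene and each black line the median of its row. Cdh1 at -1.29 stands to the left of the other genes shown, and medians lie between -0.098 and 0.17.

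The genes whose values over the 6 libraries were most like those of Cdh1 were abundant genes of other roles. Among 11055 genes that averaged 5 CPM or more, Pearson's r of log2 CPM was 0.998 for the sperm tail gene Ropn1l, 0.996 for the respiratory chain subunit Sdhc, 0.988 for the reductase Dhrs4, 0.982 for the cilium gene Cfap157 and 0.978 for Kri1. These are descriptions over 6 points that share their libraries, picked as the highest of many. Their own differences were smaller, with log2 fold changes of -0.15 to -0.075 against -1.29 for Cdh1.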

How the data were processed

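Ribosomal RNA was removed and stranded libraries of whole testis were prepared, per the labels' protocols. The submitters' processing notes name HISAT2 and the mm10 build. Not given in the sources used here are its version, the counting tool, its annotation and whether it used strand. The deposited table gave read counts per gene, FPKM and TPM side by side, per the file headers. Counts were whole numbers without normalization, and FPKM and TPM were computed by the authors. Totals ran from 38935654 to 47420249 counts per library, and 0 sample columns lay outside the 6 libraries. In each of 15 pairs of libraries counts differed by more than sampling noise (chi-square per gene at least 7.66).

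Counts were tested with edgeR 4.0.16 in R 4.3.3 (filterByExpr, TMM, quasi-likelihood test, no covariate, Benjamini-Hochberg adjustment over all 25073 tested genes). Each standard error is the log2 fold change divided by the root of its F statistic. CPM values are TMM-scaled. Alternatives used DESeq2 1.42.0, limma 3.58.1, other scalings, filters and pseudocounts, and each library left out. Implied lengths were count divided by FPKM and total count. Positions came from RefSeq (GRCm38.p6) and overlaps from GENCODE M21. RefSeq promoters were matched for 5 of the 10 genes, and Nectin2 and Nectin3 printed.

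The 10 genes, the gene lists and the tests were chosen with earlier results of these data known. Named were all 10 genes, the 3 of smallest unadjusted p per list, marker sums, and the 5 genes most like the member of smallest p. Of the genes this rule names, 1 is not reported here. Id4, Eomes, Etv5, Epcam, Krt8, Pax2, Pax8, Fabp4, Cfd and Adipoq, the genes at 0, and the implied lengths were chosen after values were seen.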

Additional observations from a re-analysis of the deposited data

How the results depend on the processing

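Of those of the 10 genes that each setting tested, 0 were called in the main test and in each of the 17 alternatives. The number of genes called over all genes was 0 by edgeR and 2 with upper-quartile factors, 2 with a filter of 1 CPM in 3 libraries, 5 by limma-voom (3 higher, 2 lower) and 355 by DESeq2 (188 higher, 167 lower), and DESeq2 called 2 of the junction genes where edgeR called 0. With each library left out in turn it ranged from 0 to 3. With the replicate number as a block (replicate block) it was 15, 5 higher and 10 lower, and 0 of the 10 genes were among them. Same-numbered libraries had correlations of -0.068, 0.003 and 0.152, where those of differently numbered libraries ran from -0.192 to 0.188. Each library was taken as its difference from the mean of its diet, which ties these correlations to each other. They therefore cannot decide whether replicate numbers pair the samples. The median log2 fold change of the 10 genes was 0.076, 0.044 without ethanol library 3, and 0.128 on log2(TPM + 1) and 0.131 on log2(TPM + 0.1), where the median of all genes was 0.0438 and 0.0579. Nectin3 turned from -0.045 to 0.030 on both TPM scales and ranged from -0.080 to 0.006 with a library left out, being above 0 without ethanol library 1. The cause was not tested. The other 9 genes kept their sign in each setting that gave them a value, while leaving out a library moved most of the 10 by over 1.5 times, as given with each. Cdh1 was not tested under the 1 CPM filter, had, like Cdh3, no adjusted p from DESeq2, and lay between -1.58 and -0.12 in the rest, nearest to 0 on log2(FPKM + 1), where a pseudocount of 1 exceeds its level. Among its fits without a library it was -0.92 without control library 1 and -0.96 without ethanol library 2. Cdh1 had 7 to 54 reads per library.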
